A study of Mus musculus with 6 samples.

Results

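Imprinted genes are expressed mainly or only from the chromosome inherited from 1 parent. The protein-coding members described here are 40 listed mouse genes from 17 imprinted loci, taken by symbol, and 39 of the 21978 genes in the deposited table carry such a symbol (Rtl1 was not analysed here). By the allele each gene is known to use in at least some tissues, 20 of the 39 are paternally expressed, 18 are maternally expressed, and Gnas, whose promoters differ in imprint, is called complex.

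Messenger RNA was sequenced from mouse embryonic stem cells that differ in DGCR8, a double-stranded RNA-binding protein that works with Drosha to cut primary microRNA transcripts. E518K is a substitution in DGCR8 found in Wilms tumour, a childhood kidney cancer. The KO group has the genotype DGCR8 -/-, was not transfected and has libraries 1 and 3, and both titles carry clone number 261. The wt group has the label DGCR8 wt/wt and comprises clones 12 and 16, which received pSB ET iE-FlagDGCR8-wt. The E518K group has the label DGCR8 E518K/E518K and comprises clones 8 and 15, which received pSB ET iE-FlagDGCR8-E518K. In both transfected groups the SB100X transposase plasmid pCMV(CAT)-SB100X was delivered as well, so they differ from KO in the transgene procedure as well as in the protein. All 6 libraries came from cells with the same strain label (NBA1-19349), grown without feeders in 2i medium with LIF and given 300 ng/mL doxycycline for 48 h, KO included.

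A germ-line methylation mark at an imprinting control region, laid down in egg or sperm, decides which parental copy of the surrounding genes is transcribed. After fertilization the mark is held by the zinc-finger protein ZFP57, by TRIM28 and by the maintenance methyltransferase DNMT1 with its partner UHRF1. Many imprinted genes act on fetal or placental growth, and in embryonic stem cells their expression is known to drift with culture. Counts do not separate the parental alleles, so allele use was not measured.

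The libraries held 73642784 to 75121971 counts over genes. In CPM, counts scaled to library size per 1000000, Dgcr8 itself was at 40 and 37.1 in KO libraries 1 and 3. It reached 196 in wt clone 12 and 992 in wt clone 16, and E518K clones 8 and 15 had 821 and 420 CPM, so the targeted gene followed the labels while its level differed widely within the transfected groups. The KO libraries resembled each other far more (biological coefficient of variation 2.6%) than the clones of wt (20.6%) or E518K (9.19%). All 16 embryonic stem cell markers were above 10 CPM in every library, but their levels differed. At the adjusted p under 0.05 used below, 2 were higher and 12 lower in KO than in wt (87.5% called, beside 57.2% of all genes). Tcl1, Tbx3 and Klf4 were lower by 4.0-, 2.55- and 2.1-fold. Against KO, 10 were higher and 2 lower in E518K (75.0%, beside 41.8%). Against wt, 3 were higher and 3 lower in E518K (37.5%, beside 23.7%). Of other lineages, 9 of 14 fibroblast markers were under 1 CPM in every library and their sum ranged from 5.91 to 9.94 CPM, and the trophoblast sum ranged from 77.2 to 106 CPM with Tpbpa at 0. The summed endoderm markers were at 65.2 and 36.8 CPM in wt and at 23.0 to 24.2 CPM elsewhere. Lama1 alone held 62.2 and 33.1 CPM of this in wt and 19.3 to 21.8 CPM elsewhere. Among the 10 endoderm markers, 7 were under 1 CPM in every library. With 8 tested, 3 were lower in KO than in wt and 5 were not called (37.5% called, beside 57.2% of all genes). The mesoderm sum was 3.01 and 3.30 CPM in wt, 14.4 and 15.8 CPM in KO and 7.33 and 7.30 CPM in E518K, with Msgn1 at 0. Evx1 held 8.57 and 9.05 CPM of this sum in KO and 0.152 and 0.325 CPM in wt. Kdr held 3.75 and 4.04 CPM in KO and 0.11 and 0.216 CPM in wt. In KO against wt, these 2 of the 5 mesoderm markers tested were higher and 3 were not called. The log2 fold changes of those 3 were -0.49 for T, -0.79 for Tbx6 and 0.54 for Mixl1. The neural sum ranged from 310 to 365 CPM, of which Stmn2 alone held 234 to 292 CPM. These sums hide changes of single genes. Of 8 neural markers tested, 3 were higher and 1 lower in KO than in wt, with Pax6 10.3-fold and Map2 3.2-fold higher. Of 8 trophoblast markers tested, 1 was higher (Krt8, 3.31-fold) and 5 lower in KO than in wt (75.0% called, beside 57.2%). Among those 5, Ascl2 and Gata3 were lower by 9.28- and 6.0-fold. The part of these markers in the results on imprinted genes was not tested. In bulk samples, fewer expressing cells and less RNA per cell cannot be told apart.

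Without DGCR8, imprinted genes moved in both directions. Of the 39 members, 9 were higher and 15 lower in KO than in wt at an adjusted p under 0.05 in edgeR's quasi-likelihood test, and 15 did not pass. That is 61.5% called, beside 57.2% of the 16498 genes tested (27.4% higher and 29.7% lower), so in this fit the share called was near the background. The fit takes the KO libraries as replicates, though both carry the same clone number. With them summed, or with either left out, the member share lay further above that of all genes. Such fits have no spread within KO. At least 2-fold changes were found for 15 members (38.5%), beside 21.6% of all genes. The 4 that rose this much (10.3% of members, beside 11.6% of all genes) were Plagl1, Ddc, Kcnq1 and Dcn. The 11 that fell this much (28.2%, beside 10.0% of all genes) were Snrpn, Magel2, Peg12, Phlda2, Cdkn1c, Slc22a18, Peg10, Sgce, Usp29, Dio3 and Gnas. The median log2 fold change of the members was -0.25, beside -0.02 for all genes. Paternally expressed members had 5 higher and 8 lower of 20, and maternally expressed members had 4 higher and 6 lower of 18. Zim1 and Dcn reached the count filter in the KO group alone, the group where they were highest, so their differences from KO were fixed in part by the filter. Over the other 37 members, 8 were higher and 15 lower in KO than in wt, with 3 at least 2-fold higher (8.11%) and 11 at least 2-fold lower (29.7%).

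With E518K protein in place of wt, 4 members were higher and 9 lower, and 26 did not pass. The 33.3% called compares with 23.7% of all genes (11.3% higher and 12.5% lower), and 8 members (20.5%) had at least a 2-fold change, beside 6.64% of all genes. Of these 8, 1 rose and 7 fell, beside 2.3% and 4.34% of all genes. The 4 that rose were Snrpn, Kcnq1, Ddc and Impact, and the 9 that fell were Phlda2, Slc22a18, Peg10, Sgce, Ppp1r9a, Usp29, Dio3, Plagl1 and Gnas. A fit that leaves out 1 wt clone has no spread within wt, the most variable group, and called a larger share of all genes. The counts of members moved with single libraries, as did the share called of all genes. Without E518K clone 15 they were 1 and 2 (7.69% of members, beside 3.78% of all genes), and without E518K clone 8 they were 2 and 4 (15.4% beside 9.68%). Without wt clone 16 they were 8 and 12 (51.3% beside 41.2%), and without wt clone 12 they were 4 and 16 (51.3% beside 31.2%). Without KO library 1 or 3 they were 2 and 7 in each case (23.1%, beside 11.2% and 11.3%).

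Between E518K and KO, 12 members were higher and 7 lower in E518K. The 48.7% called compares with 41.8% of all genes (22.0% higher and 19.8% lower), and 9 members (23.1%) had at least a 2-fold change, beside 10.4% of all genes. Of these 9, 7 were higher and 2 lower in E518K, beside 3.97% and 6.44% of all genes. Without Zim1 and Dcn, 6 members were lower, 1 of them at least 2-fold (2.7%). Since both KO libraries carry 1 clone number, this comparison was also made with them summed to 1 library, and 5 members were then higher and 2 lower. That is 17.9% of members, beside 19.3% of all genes at that setting, so the share called was not above the background. Without KO library 1 the counts were 5 and 2 (17.9% beside 19.4%), and without KO library 3 they were 6 and 2 (20.5% beside 19.5%). Without E518K clone 8 they were 7 and 5 (30.8% beside 23.7%), and without E518K clone 15 they were 10 and 4 (35.9% beside 27.8%). Without wt clone 12 or 16 they were 15 and 11 in each case (66.7%, beside 55.7% and 55.9%). The 3 comparisons share libraries, so their calls are not independent.

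**Figure D1:**
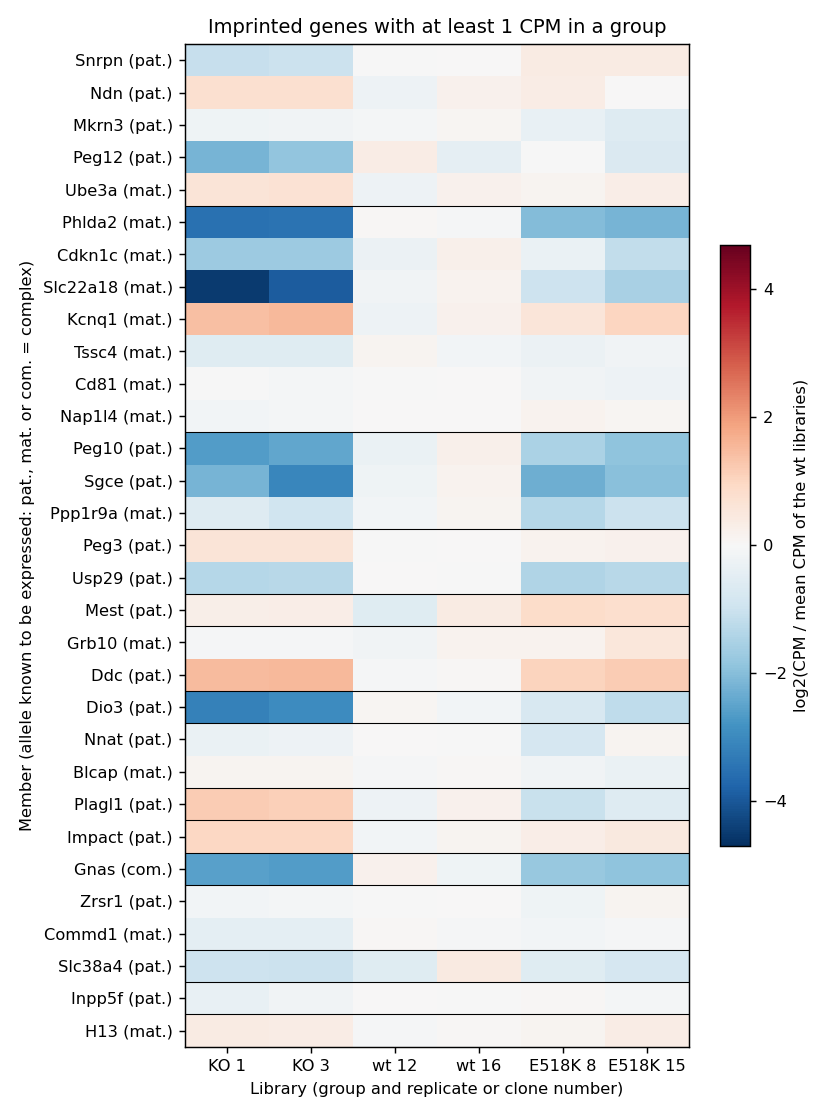
Each row is 1 of the 31 members with a mean of at least 1 CPM in a group, each column is a library, and colour gives log2 of the CPM over the mean of the wt libraries. Lines separate loci. The KO libraries are blue for Phlda2, Slc22a18, Dio3, Peg10, Sgce and Gnas and red for Ddc, Kcnq1 and Plagl1, and the E518K columns have the opposite colour from KO for Snrpn and Plagl1.

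Levels can be compared between genes only per length, and the deposited TPM values divide by the whole gene span, introns included. This lowers genes with long introns relative to short genes. In wt, Snrpn (2159 exonic bases in a span of 157725) was at 87.4 CPM and 3.68 TPM. Tssc4 (span of 1845 bases) was at 34.2 CPM and 123 TPM. The order below therefore holds for the TPM scale only, and Tssc4 and Zrsr1 share their whole spans with another gene. On that scale, Cd81, a tetraspanin, and Tssc4, a splicing-related protein, had the highest mean levels in wt (133 and 123 TPM). They were followed by Zrsr1 (47.4 TPM), Phlda2 (39.2 TPM), Impact (35.7 TPM), Nap1l4 (30.1 TPM), Dio3 (27.2 TPM) and Gnas (27.0 TPM). In KO, Impact stood at 71.9 TPM, while Phlda2, Dio3 and Gnas were at 3.59, 3.36 and 4.64 TPM. In E518K the same 4 genes had mean levels of 44.6, 8.65, 13.4 and 7.25 TPM.

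The Kcnq1ot1 domain on chromosome 7 holds 8 members, all maternally expressed where they are imprinted. A control region inside Kcnq1 starts the antisense RNA Kcnq1ot1 on the paternal copy, which silences the neighbours on that copy. Cdkn1c, Slc22a18 and Phlda2 lie next to each other in this domain, and all 3 were lower in KO than in wt, while Kcnq1 was higher and the outer members Cd81, Nap1l4 and Osbpl5 did not pass the test.

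Phlda2, a PH-domain protein that restrains placental growth, lies at chr7:143501545-143503150 on the minus strand (GRCm38). It was at 9.85 and 9.15 CPM in wt, 0.828 and 0.855 CPM in KO and 2.30 and 2.07 CPM in E518K. The 3 groups did not overlap, with E518K in between. On the log2 scale KO differed from wt by -3.49 ± 0.18 (SE; adjusted p = 2.73e-05, 11.3-fold) and E518K did so by -2.12 ± 0.17 (adjusted p = 0.00099). The E518K clones exceeded KO by 1.38 ± 0.18 (adjusted p = 0.00126).

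Slc22a18, a membrane transporter gene at chr7:143473736-143499334 on the plus strand, had 150 and 191 counts in wt, 8 and 12 in KO and 86 and 59 in E518K. In CPM these are 2.07 and 2.58, 0.103 and 0.156, and 1.19 and 0.809. The wt values were highest, the KO values lowest, and no group overlapped another. It fell in KO by 4.15 ± 0.38 on the log2 scale (adjusted p = 0.000178, 17.7-fold), and the E518K level lay above KO by 2.93 ± 0.39 (adjusted p = 0.00129). The difference of E518K from wt, -1.21 ± 0.31 (adjusted p = 0.0319), lost its call without either E518K clone (-1.52, adjusted p = 0.0774, without clone 8 and -0.95, adjusted p = 0.202, without clone 15), and without either KO library (adjusted p = 0.0684 in each case).

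Cdkn1c encodes p57Kip2, an inhibitor of cyclin-dependent kinases, at chr7:143458339-143461050 on the minus strand. Its level was 2.68 and 3.81 CPM in wt, 0.983 and 0.985 CPM in KO and 2.58 and 1.44 CPM in E518K. The KO values were below all others, and E518K clone 8 was close to wt clone 12. The fall in KO was 1.72 ± 0.34 on the log2 scale (adjusted p = 0.00418). E518K differed from wt by -0.69 ± 0.32 (adjusted p = 0.162) and from KO by 1.03 ± 0.34 (adjusted p = 0.0448), and the second difference no longer passed without E518K clone 8 (0.55, adjusted p = 0.284) or without KO library 1 or 3 (adjusted p = 0.173 and 0.171).

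Kcnq1, a voltage-gated potassium channel gene at chr7:143106362-143427042 on the plus strand, went the other way. It was at 2.03 and 2.76 CPM in wt, 6.39 and 6.82 CPM in KO and 3.58 and 4.76 CPM in E518K, with no overlap of groups. The KO level was higher than wt by 1.46 ± 0.22 on the log2 scale (adjusted p = 0.00143). E518K was above wt by 0.80 ± 0.22 (adjusted p = 0.0412) and below KO by 0.66 ± 0.22 (adjusted p = 0.0454), and each of these calls was lost without any 1 E518K or KO library (adjusted p = 0.0653 to 0.243 against KO). The call against wt was also lost without wt clone 12 (0.60, adjusted p = 0.0558). Kcnq1ot1 lies inside the Kcnq1 span on the other strand and has no row of its own here. The counts take no account of strand, so reads from Kcnq1 and from Kcnq1ot1 cannot be told apart.

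At the edges of the domain, Tssc4 was lower in KO, and Nap1l4, Cd81 and Osbpl5 did not pass against wt. Tssc4 was at 37.2 and 31.2 CPM in wt, 22.9 and 23.0 CPM in KO and 28.5 and 30.6 CPM in E518K. It was lower in KO by 0.58 ± 0.10 on the log2 scale (adjusted p = 0.0029), and E518K was above KO by 0.37 ± 0.10 (adjusted p = 0.0269), a call lost without any 1 KO or E518K library (adjusted p = 0.0743 to 0.148). The Tssc4 span lies wholly within that of Trpm5 on the other strand, whose CPM values were almost the same (37.6 and 31.5 in wt, 23.1 and 23.2 in KO), so the reads of these overlapping genes cannot be told apart. Nap1l4, a histone chaperone, was at 161 and 162 CPM in wt, 149 and 150 CPM in KO and 180 and 173 CPM in E518K. It passed the test in E518K against KO alone (0.24 ± 0.06, adjusted p = 0.0141), and not without KO library 1, KO library 3 or E518K clone 8 (adjusted p = 0.137, 0.129 and 0.0749). Cd81 ranged from 259 to 312 CPM over the 6 libraries and differed between KO and wt by -0.05 ± 0.06 (adjusted p = 0.472). Osbpl5, a lipid-transfer protein, had 40 and 76 counts in wt, 26 and 44 in KO and 30 and 16 in E518K. Its log2 differences from wt were -0.80 in KO (95% confidence interval -1.97 to 0.38) and -1.31 in E518K (-2.52 to -0.09), with adjusted p of 0.206 and 0.108.

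**Figure D2:**
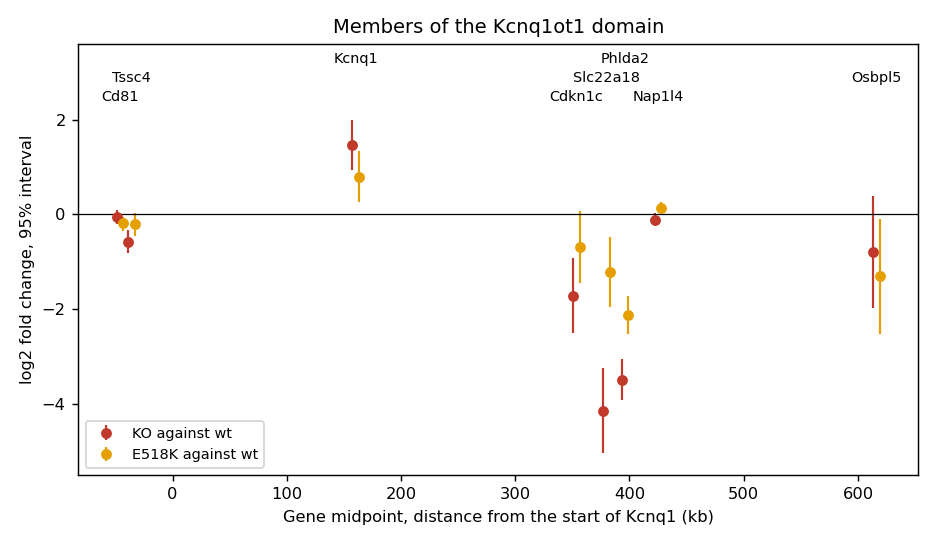
The x axis is the distance of each gene's midpoint from the start of Kcnq1 in kb, and the y axis is the log2 fold change against wt with its 95% confidence interval for KO (red) and E518K (orange). For KO, Cdkn1c, Slc22a18 and Phlda2, 353.3 to 396.0 kb from the start of Kcnq1, are lowest. For E518K, Phlda2 is lowest, Osbpl5 has a wide interval, and Nap1l4 at 425.0 kb is near 0.

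The Prader-Willi/Angelman region on chromosome 7 holds 6 members. Its control region overlaps the promoter of Snrpn, a core splicing protein of the Sm family, and is methylated on the maternal copy. In KO, the paternally expressed Snrpn, Magel2 and Peg12 were lower, paternally expressed Ndn and maternally expressed Ube3a were higher, and Mkrn3 did not pass. Of the promoter windows of all RefSeq genes (250 bases before to 50 after the start), the windows of 3 members called in KO against wt held TGCCGC, the hexamer to which ZFP57 binds when it is methylated. That of Snrpn, chr7:60005150-60005449 on the minus strand (RefSeq, GRCm38.p6), is shown because Snrpn reads out this control region. The capitals mark GCGGCA, the hexamer on the other strand.
Snrpn promoter: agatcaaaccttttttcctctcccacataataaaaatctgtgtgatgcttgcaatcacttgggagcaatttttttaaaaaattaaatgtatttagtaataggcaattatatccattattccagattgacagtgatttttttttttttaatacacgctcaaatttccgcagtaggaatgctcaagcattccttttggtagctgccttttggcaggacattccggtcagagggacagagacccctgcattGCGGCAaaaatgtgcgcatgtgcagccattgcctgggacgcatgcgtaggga

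Both strands were searched, and 11 of the 50 windows of members (22.0%) held the hexamer, beside 11.6% of all 32851 windows. By gene, 10 of the 32 members with a window had a match in any (31.2%), beside 13.1% of all 27025 genes with a window. A match describes these letters only.

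Snrpn was at 86.5 and 88.3 CPM in wt, 41.3 and 43.1 CPM in KO and 115 and 113 CPM in E518K. The libraries of each group were close together and the groups far apart, with KO lowest and E518K, not wt, highest. Compared with wt, KO differed by -1.05 ± 0.06 on the log2 scale (adjusted p = 4.04e-05) and E518K was higher by 0.38 ± 0.06 (adjusted p = 0.00756). The direct difference of E518K from KO was 1.43 ± 0.06 (adjusted p = 7.79e-05). Without E518K clone 15 the rise over wt was 0.40 (adjusted p = 0.0565). Snurf, the upstream reading frame of the same transcription unit, shares 6.1% of the Snrpn span on the same strand, and its values are no separate support. It was at 26.6 and 26.9 CPM in wt, 12.6 and 12.4 CPM in KO and 33.8 and 34.3 CPM in E518K.

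Peg12, a FRAT-family inhibitor of the kinase GSK3, was at 2.14 and 1.27 CPM in wt, 0.375 and 0.467 CPM in KO and 1.68 and 1.07 CPM in E518K. The KO values were lowest, and wt and E518K overlapped. It was lower in KO by 2.01 ± 0.39 on the log2 scale (adjusted p = 0.00394), and E518K exceeded KO by 1.70 ± 0.39 (adjusted p = 0.0118), which did not pass without E518K clone 8 (1.35, adjusted p = 0.0907) or without KO library 1 or 3 (adjusted p = 0.0892 and 0.0575). Magel2, a MAGE-family protein of the endosomal recycling machinery, had only 25 and 46 counts in wt, 5 and 14 in KO and 35 and 34 in E518K. It passed in KO against wt (-1.96 ± 0.59, adjusted p = 0.0245) and between E518K and KO (1.94 ± 0.59, adjusted p = 0.0346). The first did not pass without KO library 1, wt clone 16, E518K clone 8 or E518K clone 15 (adjusted p = 0.0566 to 0.147), nor the second without KO library 1, E518K clone 8 or E518K clone 15 (adjusted p = 0.114 to 0.197).

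Ndn encodes necdin, another MAGE-family protein. Its level was 3.35 and 4.60 CPM in wt, 6.74 and 6.69 CPM in KO and 5.07 and 4.0 CPM in E518K. KO was highest and the other groups overlapped. E518K against KO did not pass in the main fit (-0.57 ± 0.21, adjusted p = 0.0632). It did in DESeq2 (adjusted p = 0.042) and in edgeR with these groups alone (adjusted p = 0.00825). The rise in KO was 0.76 ± 0.21 on the log2 scale (adjusted p = 0.0172), and it did not pass without KO library 1 (adjusted p = 0.0886) or KO library 3 (adjusted p = 0.0848). Ube3a, the ubiquitin ligase lost in Angelman syndrome, was at 48.0 and 65.7 CPM in wt, 86.2 and 91.1 CPM in KO and 61.8 and 70.9 CPM in E518K. KO was again above all other libraries, by 0.64 ± 0.14 over wt (adjusted p = 0.00778). E518K did not differ from wt at the threshold (0.22, adjusted p = 0.299), and without wt clone 16 the difference was 0.47. E518K also did not pass against KO in the main fit (-0.42 ± 0.14, adjusted p = 0.053), and without wt clone 12 or wt clone 16 that difference was -0.41. It passed in edgeR with RLE scaling factors (adjusted p = 0.0491) and with these groups alone (adjusted p = 0.00151), and in DESeq2 (adjusted p = 0.0171). The antisense RNA Snhg14 overlaps the Ube3a span, and its reads cannot be told apart from those of Ube3a. Mkrn3, a RING-finger ubiquitin ligase, ranged from 4.25 to 6.84 CPM and was not called.

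In the Peg10 and Sgce cluster on chromosome 6, Peg10, Sgce and Ppp1r9a were lower than wt in both KO and E518K, and Asb4 and Calcr did not pass. Peg10, a retrotransposon-derived protein that the placenta requires, lies at chr6:4747306-4760517 on the plus strand. It was at 16.8 and 24.7 CPM in wt, 3.36 and 3.81 CPM in KO and 7.36 and 5.57 CPM in E518K, without overlap. Peg10 fell by 2.53 ± 0.23 on the log2 scale in KO (adjusted p = 0.00017) and by 1.68 ± 0.22 in E518K (adjusted p = 0.00387), and without E518K clone 15 the latter difference was -1.49 (adjusted p = 0.057). E518K was above KO by 0.85 ± 0.23 (adjusted p = 0.0214), a call lost without KO library 1 (adjusted p = 0.121), KO library 3 (adjusted p = 0.0715) or E518K clone 8 (adjusted p = 0.145).

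Sgce, the membrane glycoprotein epsilon-sarcoglycan, starts head to head with Peg10 at chr6:4674350-4747207 on the minus strand. Levels were low, at 1.32 and 1.70 CPM in wt, 0.336 and 0.181 CPM in KO and 0.305 and 0.384 CPM in E518K. Both wt clones were above the other 4 libraries, among which KO and E518K overlapped. Sgce fell by 2.54 ± 0.40 in KO (adjusted p = 0.00163) and by 2.13 ± 0.39 in E518K (adjusted p = 0.0108) on the log2 scale. Without clone 8 or clone 15 the E518K difference had an adjusted p of 0.0814 or 0.0859. E518K and KO differed by 0.41, with a 95% confidence interval from -0.59 to 1.41. Ppp1r9a, a neurabin scaffold of protein phosphatase 1, was at 8.41 and 10.2 CPM in wt, 6.08 and 4.87 CPM in KO and 3.69 and 4.61 CPM in E518K. The KO libraries lay between wt and E518K. It fell by 0.76 ± 0.19 in KO (adjusted p = 0.012) and by 1.16 ± 0.19 in E518K (adjusted p = 0.00801), the first lost without KO library 3 (-0.61, adjusted p = 0.108) and the second without E518K clone 8 or 15 (adjusted p = 0.0605 and 0.056). Asb4, a ubiquitin ligase subunit, had 8 to 58 counts per library, and Calcr, the calcitonin receptor, had 13 to 21.

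Peg3 and Usp29 are paternally expressed and start from 1 control region on chromosome 7, from which Peg3, a zinc-finger protein, is read on the minus strand and Usp29, a ubiquitin-specific protease, on the plus strand. The RefSeq promoter window of Peg3, chr7:6730370-6730669 on the minus strand (GRCm38.p6), is shown because these neighbours moved in opposite directions in KO. Its capitals mark the 263 bases that also belong to the Usp29 window.
Peg3 promoter: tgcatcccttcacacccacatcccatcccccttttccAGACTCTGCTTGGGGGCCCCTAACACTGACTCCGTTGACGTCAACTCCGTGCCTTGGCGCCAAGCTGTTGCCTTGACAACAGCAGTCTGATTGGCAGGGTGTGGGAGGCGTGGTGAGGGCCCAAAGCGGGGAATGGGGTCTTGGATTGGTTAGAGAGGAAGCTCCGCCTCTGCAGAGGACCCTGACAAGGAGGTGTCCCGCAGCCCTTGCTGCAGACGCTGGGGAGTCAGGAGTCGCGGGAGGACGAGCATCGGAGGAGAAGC

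Peg3 was at 21.7 and 22.0 CPM in wt, 33.2 and 33.6 CPM in KO and 24.2 and 25.1 CPM in E518K. The groups did not overlap, with KO highest. It rose by 0.61 ± 0.08 on the log2 scale in KO (adjusted p = 0.000706), while E518K differed from wt by 0.18 ± 0.08 (adjusted p = 0.151) and was below KO by 0.44 ± 0.08 (adjusted p = 0.00447). Without KO library 1 or 3 the last value had an adjusted p of 0.0599 or 0.066. Usp29 was at 1.85 and 1.83 CPM in wt, 0.724 and 0.752 CPM in KO and 0.694 and 0.754 CPM in E518K. The wt clones were high, and the other 4 libraries lay between 0.694 and 0.754 CPM. Usp29 was lower by 1.31 ± 0.25 in KO (adjusted p = 0.00379) and by 1.34 ± 0.25 in E518K (adjusted p = 0.0119), the latter lost without E518K clone 8 or 15 (adjusted p = 0.0769 and 0.0867). The difference of E518K from KO was -0.03, with a 95% confidence interval from -0.64 to 0.59. Zim1, a maternally expressed zinc-finger gene next to Peg3, had 2 to 24 counts per library and was tested only because it reached the count filter in KO. It passed in E518K against KO alone (-2.60 ± 0.75, adjusted p = 0.0284), and not without any 1 KO or E518K library (adjusted p = 0.081 to 0.168).

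The Usp29 span holds a microRNA on the same strand, as does that of Mest, a paternally expressed gene for a hydrolase-fold protein linked to growth. The Calcr span holds Mir489 and Mir653 on the same strand as well, and those are not shown because Calcr had at most 21 counts per library. The others are shown because DGCR8 acts on primary transcripts of this kind. The capitals are the seeds, bases 2 to 8, and none of the 4 seeds is shared (RefSeq).
mmu-miR-3099-5p in Usp29: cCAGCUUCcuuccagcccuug
mmu-miR-3099-3p in Usp29: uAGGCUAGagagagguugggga
mmu-miR-335-5p in Mest: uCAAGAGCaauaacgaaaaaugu
mmu-miR-335-3p in Mest: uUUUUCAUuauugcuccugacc

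Mest was at 30.2 and 58.7 CPM in wt, 53.6 and 55.1 CPM in KO and 80.8 and 76.3 CPM in E518K. The wt clones differed by more than the other groups did within themselves, and KO lay inside their range. KO differed from wt by 0.29 ± 0.26 (adjusted p = 0.367) and E518K by 0.82 ± 0.26 (adjusted p = 0.0589). Without wt clone 16 these differences were 0.84 for KO and 1.38 for E518K, and without wt clone 12 they were -0.11 and 0.42. A fit with 1 wt library has no spread within wt, the group that varied most, so its calls are not given. The mature microRNAs were not measured in these libraries.

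Ddc and Grb10 are neighbours on chromosome 11. Ddc makes aromatic amino acid decarboxylase and is imprinted in heart, and Grb10 is an adaptor that restrains insulin and IGF receptor signalling. Ddc, at chr11:11814101-11898144 on the minus strand, was at 28.6 and 31.5 CPM in wt, 83.7 and 86.7 CPM in KO and 61.9 and 68.7 CPM in E518K. The wt clones were low, KO was highest and no group overlapped another. It rose by 1.5 ± 0.09 on the log2 scale in KO (adjusted p = 3.5e-05) and by 1.12 ± 0.09 in E518K (adjusted p = 0.000893). E518K was below KO by 0.38 ± 0.08 (adjusted p = 0.00949), a call lost without KO library 1 or 3 (adjusted p = 0.0637 and 0.0922) and without E518K clone 8 (adjusted p = 0.0727). Grb10 ranged from 64.8 to 104 CPM and was not called, with KO inside the range of wt.

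On chromosome 12, Dio3 makes the deiodinase that inactivates thyroid hormone and lies at chr12:110279068-110281097 on the plus strand. It was at 8.95 and 7.72 CPM in wt, 0.918 and 1.08 CPM in KO and 4.94 and 3.66 CPM in E518K. KO was lowest, E518K was between, and the groups did not overlap. Dio3 was lower in KO by 3.06 ± 0.23 on the log2 scale (adjusted p = 8.18e-05, 8.35-fold) and in E518K by 0.95 ± 0.20 (adjusted p = 0.0177). E518K stood above KO by 2.11 ± 0.22 (adjusted p = 0.000595). Without E518K clone 15 the difference from wt was -0.74 (adjusted p = 0.125). Dlk1, a transmembrane protein that restrains differentiation and lies at the other end of this locus, had 16 to 60 counts per library and did not pass.

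Gnas on chromosome 2 encodes the stimulatory G-protein alpha subunit and, from other promoters, alternative proteins of opposite imprint. Its span, chr2:174284320-174346744 on the plus strand, holds all of these and the antisense RNA Nespas, and 26.3% of it is shared with another gene of the table, so the counts cannot be assigned to 1 product. Gnas was at 291 and 219 CPM in wt, 43.3 and 41.4 CPM in KO and 73.6 and 69.1 CPM in E518K. Both wt clones were far above the other libraries, and E518K was above KO. Relative to wt, Gnas fell by 2.59 ± 0.13 on the log2 scale in KO (adjusted p = 2.67e-05, 6.03-fold) and by 1.84 ± 0.13 in E518K (adjusted p = 0.000773, 3.58-fold). The gap between E518K and KO was 0.75 ± 0.13 (adjusted p = 0.00344).

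Plagl1, a paternally expressed zinc-finger factor that acts on other genes of the imprinted network, was called in opposite directions. It was at 12.5 and 17.1 CPM in wt, 33.5 and 31.8 CPM in KO and 7.08 and 9.82 CPM in E518K. KO was highest, E518K lowest, and no group overlapped another. It rose by 1.14 ± 0.19 on the log2 scale in KO (adjusted p = 0.00215), and E518K was below KO (-1.95 ± 0.20, adjusted p = 0.00053). The fall of E518K below wt, 0.81 ± 0.20 (adjusted p = 0.0263), was not called without E518K clone 8 (-0.59, adjusted p = 0.136), E518K clone 15 (-1.05, adjusted p = 0.0642), KO library 1 (adjusted p = 0.0583) or KO library 3 (adjusted p = 0.0576). A Plagl1 window with the ZFP57 hexamer, chr10:13090582-13090881 on the plus strand (RefSeq, GRCm38.p6), is shown because Plagl1 had the largest change in KO among called members whose window held it. The capitals mark GCGGCA.
Plagl1 promoter: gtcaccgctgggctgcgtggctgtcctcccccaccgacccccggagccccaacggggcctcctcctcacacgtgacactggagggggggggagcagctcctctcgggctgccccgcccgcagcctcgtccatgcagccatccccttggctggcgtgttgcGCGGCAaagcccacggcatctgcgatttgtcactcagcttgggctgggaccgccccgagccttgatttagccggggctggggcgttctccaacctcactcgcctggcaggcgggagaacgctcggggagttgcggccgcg

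Impact, a paternally expressed inhibitor of the amino acid sensing kinase GCN2, was at 101 and 120 CPM in wt, 218 and 216 CPM in KO and 138 and 153 CPM in E518K. KO was highest and E518K between. It rose by 0.97 ± 0.09 in KO (adjusted p = 0.000219) and was lower in E518K than in KO by 0.58 ± 0.09 (adjusted p = 0.00282). The rise in E518K over wt, 0.39 ± 0.09 (adjusted p = 0.0258), did not pass without E518K clone 8 (adjusted p = 0.0664), E518K clone 15 (adjusted p = 0.158), KO library 1 (adjusted p = 0.0636) or KO library 3 (adjusted p = 0.0633).

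**Figure D3:**
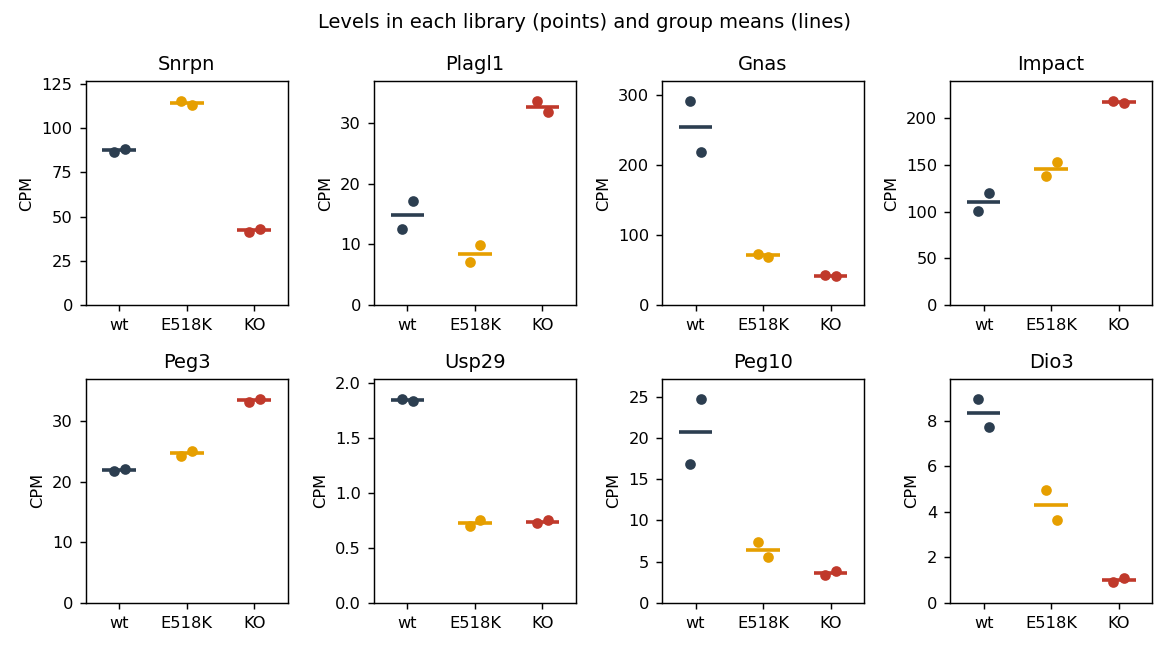
Each panel gives 1 member in CPM on a linear axis from 0, with 1 point per library and a line at the group mean. Snrpn is highest and Plagl1 lowest in E518K, the E518K level of Gnas, Impact, Peg10 and Dio3 lies between wt and KO, and Usp29 in E518K is at the KO level.

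Several imprinted genes lie inside or around a host gene. Commd1, a copper and endosome trafficking protein, holds the retrogene Zrsr1 in an intron on the other strand. Commd1 was at 81.0 and 74.7 CPM in wt, 56.5 and 56.9 CPM in KO and 71.3 and 75.6 CPM in E518K. KO was lowest, and wt and E518K overlapped. It was lower in KO by 0.46 ± 0.07 on the log2 scale (adjusted p = 0.00155) and higher in E518K than in KO by 0.37 ± 0.07 (adjusted p = 0.00566), the latter lost without KO library 1 or 3 (adjusted p = 0.0656 and 0.061). Zrsr1 ranged from 27.9 to 34.8 CPM and was not called. Its whole span is shared with Commd1, so its counts can hold reads of the host. The Commd1 window at chr11:22982235-22982534 on the minus strand (RefSeq, GRCm38.p6) is the last with the hexamer among members called in KO against wt, and GCGGCA is in capitals.
Commd1 promoter: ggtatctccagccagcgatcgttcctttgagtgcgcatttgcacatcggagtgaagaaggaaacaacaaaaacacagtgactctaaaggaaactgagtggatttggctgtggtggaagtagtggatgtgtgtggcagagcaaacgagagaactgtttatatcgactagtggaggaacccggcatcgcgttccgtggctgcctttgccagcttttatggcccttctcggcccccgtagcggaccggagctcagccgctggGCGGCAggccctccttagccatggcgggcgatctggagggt

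Blcap, a small membrane protein, holds Nnat, a paternally expressed proteolipid gene, in the same way. Blcap was at 32.3 and 34.9 CPM in wt, 36.8 and 36.5 CPM in KO and 29.9 and 27.4 CPM in E518K. KO was highest and E518K lowest without overlap, and only E518K against KO passed (-0.35 ± 0.09, adjusted p = 0.0141). That call was lost without KO library 1 (adjusted p = 0.119), KO library 3 (adjusted p = 0.108) or E518K clone 15 (adjusted p = 0.094). Nnat, whose whole span is shared with Blcap, ranged from 2.32 to 4.35 CPM without a call, and its counts too can hold host reads. H13, a signal peptide peptidase gene with the retrogene Mcts2 inside it, was at 34.4 and 37.1 CPM in wt, 47.0 and 45.5 CPM in KO and 39.5 and 45.5 CPM in E518K. The wt clones were lowest, and KO and E518K overlapped. Its rise in KO, 0.37 ± 0.09 on the log2 scale (adjusted p = 0.0115), did not pass without KO library 1 (adjusted p = 0.0887) or 3 (adjusted p = 0.0608). Nap1l5, wholly inside Herc3 on the other strand, stayed under 1 CPM in every group and was not called, with the same limit.

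Slc38a4, an amino acid transporter, was at 74.1 and 147 CPM in wt, 56.4 and 55.4 CPM in KO and 74.8 and 64.5 CPM in E518K. The wt clones stood far apart, and wt clone 12 lay in the E518K range. The fall in KO was 0.99 ± 0.27 (adjusted p = 0.0181), with an adjusted p of 0.0654 without KO library 1 and 0.071 without KO library 3. E518K against wt did not pass (-0.67, adjusted p = 0.117), and without wt clone 12 it was -1.08. Against KO, E518K differed by 0.32 (adjusted p = 0.382), and the difference was also 0.32 without wt clone 12 or wt clone 16. In edgeR with these groups alone, which leaves out wt, it passed (0.32, adjusted p = 0.00645). Inpp5f, a phosphoinositide phosphatase, ranged from 12.0 to 15.5 CPM and was not called. Dcn, the matrix proteoglycan decorin, had 2 and 2 counts in wt, 14 and 16 in KO and 4 and 0 in E518K, and its KO difference (adjusted p = 0.0428) rests on these few counts and did not pass without any 1 KO or wt library (adjusted p = 0.0907 to 0.169).

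Phlda2, Slc22a18, Kcnq1, Peg10, Ddc, Dio3, Impact and Gnas passed in all 3 comparisons with the E518K mean between wt and KO. The share of all genes with this pattern was not computed, so how common it is among members is not read as a result. Calls for Slc22a18, Dio3, Impact, Kcnq1, Peg10 and Ddc depended on single libraries, as given above. On the log2 scale the E518K level had moved from wt towards KO by 29.3% of the distance for Slc22a18, 31.2% for Dio3 and 40.3% for Impact. The share was 54.7% for Kcnq1, 60.6% for Phlda2, 66.5% for Peg10, 71.0% for Gnas and 74.5% for Ddc. Lying between wt and KO is part of the rule that picked these members and so is no result. Those that fell and those that rose are found at both ends of their spread. Asking for calls in all 3 comparisons leaves out members close to either level, so that rule shapes the spread in part. Snrpn and Plagl1 were called in all 3 comparisons with E518K outside the range of wt and KO. Sgce, Ppp1r9a and Usp29 were lower than wt in both groups and did not pass between E518K and KO.

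**Figure D4:**
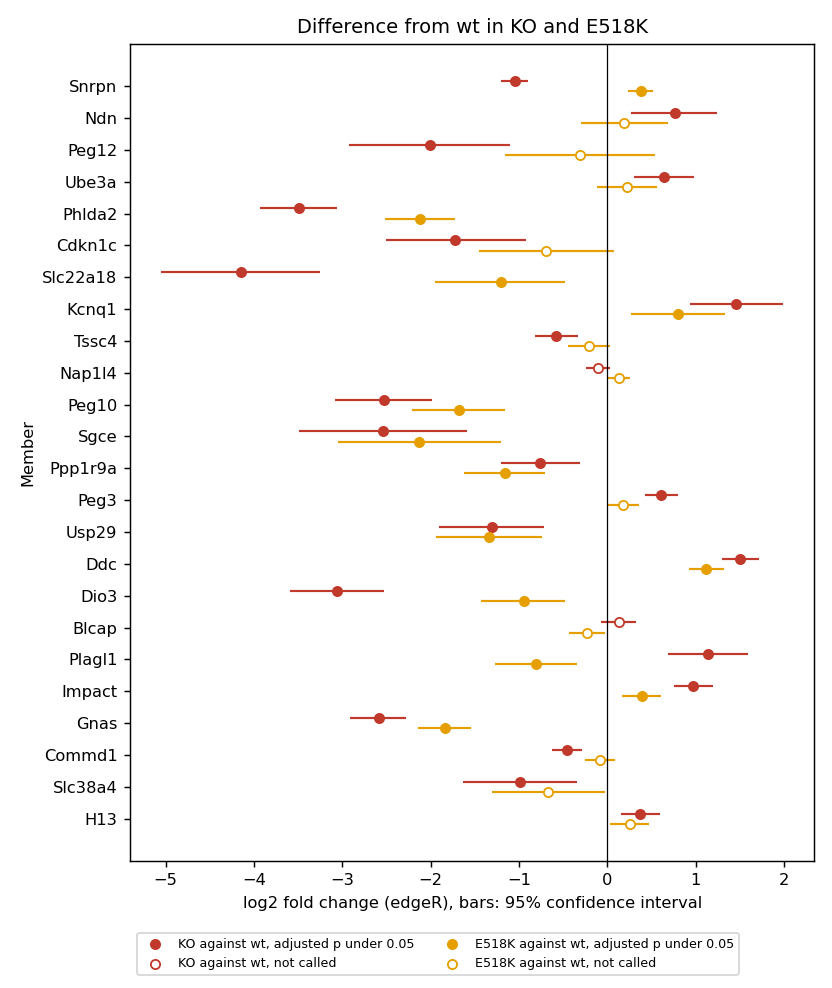
The x axis is the log2 fold change against wt from edgeR for KO (red) and E518K (orange), with 95% confidence intervals as bars and filled points for an adjusted p under 0.05. The 24 members called in at least 1 comparison with a mean of at least 1 CPM in a group are shown. The intervals of KO and E518K lie apart for Phlda2, Slc22a18 and Dio3 and overlap for Sgce and Usp29, and Snrpn and Plagl1 have points on both sides of 0.

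A list of 39 other imprinted genes had 20 that could be tested. Of these, 4 were higher and 6 lower in KO than in wt, 3 higher and 5 lower in E518K than in wt, and 3 higher and 8 lower in E518K than in KO. These are 50%, 40% and 55.0% of the list, beside 57.2%, 23.7% and 41.8% of all genes. Ascl2, a trophoblast transcription factor from the Kcnq1ot1 domain, was at 12.0 and 14.6 CPM in wt, 1.44 and 1.43 CPM in KO and 7.08 and 5.35 CPM in E518K, the order seen for Phlda2. It was lower in KO by 3.21 ± 0.20 on the log2 scale (adjusted p = 4.95e-05) and in E518K by 1.1 ± 0.18 (adjusted p = 0.00792; 0.0708 without E518K clone 15). Tspan32, a tetraspanin of the same domain, was at 2.74 and 3.72 CPM in wt, 10.3 and 9.20 CPM in KO and 5.27 and 5.55 CPM in E518K, higher in KO by 1.59 ± 0.19 (adjusted p = 0.000446). Atp10a, a lipid flippase of the Prader-Willi/Angelman region, was at 1.71 and 2.16 CPM in wt, 8.56 and 9.0 CPM in KO and 2.57 and 2.35 CPM in E518K, higher in KO by 2.18 ± 0.19 (adjusted p = 0.000134), and E518K was below KO by 1.84 ± 0.18 (adjusted p = 0.000496).

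Igf2, the paternally expressed growth factor, was at 2.08 and 2.24 CPM in wt, 0.750 and 0.881 CPM in KO and 0.833 and 0.590 CPM in E518K. It was lower by 1.41 ± 0.28 in KO (adjusted p = 0.00437; 0.051 without KO library 1) and by 1.60 ± 0.28 in E518K (adjusted p = 0.00948; 0.0893 without E518K clone 15). Igf2r, the maternally expressed receptor that clears it, was at 116 and 98.0 CPM in wt, 86.6 and 86.2 CPM in KO and 50.3 and 43.7 CPM in E518K. E518K was thus lowest, by 1.19 ± 0.10 below wt (adjusted p = 0.00131) and by 0.88 ± 0.10 below KO (adjusted p = 0.000864). Ampd3, an AMP deaminase, was at 1.66 and 3.25 CPM in wt, 2.19 and 2.36 CPM in KO and 0.805 and 0.795 CPM in E518K, and was lower in E518K than in wt (-1.61 ± 0.35, adjusted p = 0.0182) and than in KO (-1.5 ± 0.35, adjusted p = 0.012). The first did not pass without E518K clone 8 or 15 (adjusted p = 0.104 and 0.134), nor the second without any 1 KO or E518K library (adjusted p = 0.0534 to 0.0853). Pon2, a paraoxonase-family gene near Peg10, was at 0.634 and 1.43 CPM in wt, 3.44 and 3.34 CPM in KO and 0.722 and 0.603 CPM in E518K. It was higher in KO by 1.71 ± 0.37 (adjusted p = 0.00667) and lower in E518K than in KO by 2.35 ± 0.39 (adjusted p = 0.00305). Its neighbour Pon3 passed in E518K against KO alone (-1.49 ± 0.36, adjusted p = 0.0151), and not without any 1 KO or E518K library (adjusted p = 0.0793 to 0.105). Th, tyrosine hydroxylase, fell in KO (-3.43 ± 0.71, adjusted p = 0.00538) from 0.303 and 0.703 CPM in wt.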

How the data were processed

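Gene counts and TPM values for 6 libraries were used as deposited. The authors' counts are whole numbers per gene, and the deposited TPM values divide by a length that followed the whole genomic span within 5% for 98.5% of 13566 genes, introns included, and the exonic length for 4.3%. Per the submitters' processing notes, STAR and bedtools were used with GRCm38.p6. No strand setting is named there, and Tssc4, which lies inside Trpm5 on the other strand, had nearly the same counts as Trpm5.

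Counts were fitted with edgeR 4.0.16 (R 4.3.3): TMM factors, filterByExpr with a minimum count of 10 (16498 of 21978 genes kept, all 39 members among them), 1 quasi-likelihood fit of all 6 libraries with 3 residual degrees of freedom, and Benjamini-Hochberg adjustment over all genes tested. CPM use TMM factors. ± is the standard error of a log2 fold change, and the 95% confidence intervals come from the same fit. The method was tested on simulated data with the same spread in every group. That test does not cover the unequal spread of these groups or the shared KO clone number. Alternatives were other scaling factors, no filter, DESeq2 1.42.0, the compared groups alone, KO libraries summed, limma 3.58.1 on log2(TPM + 1) and each library left out.

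Both KO titles carry clone 261 while the design text speaks of separate clones, so p-values measure the spread between these libraries, which may be technical for KO. The libraries of each group differed by more than sampling noise (chi-square per degree of freedom 3.55 in KO, 51.4 in wt and 21.6 in E518K). The KO value does not tell technical from biological spread. Values per library are given for members called in a comparison with a mean of at least 1 CPM in a group. Of the lists of other imprinted genes and imprint maintenance factors, those called with at least a 2-fold change are named, at most 6 per comparison. Magel2, Zim1, Dcn, Mest and members without a call are given besides. The members and lists were chosen with earlier results of these data known. Gene positions are from GENCODE M21 (GRCm38). Promoters matched 32 of the 40 members, and Cdkn1c, Kcnq1, Nap1l4, Peg10, Sgce, Rtl1, Impact and Dcn were not searched.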

Additional observations from a re-analysis of the deposited data

How the results depend on the processing

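Of the imprinted genes, 9 higher and 15 lower in KO than in wt became 6 to 9 and 12 to 16 over all alternatives (6 to 9 and 13 to 16 when leaving out 1 library). The 4 higher in E518K than in wt became 2 with the compared groups alone, 2 with KO summed, 1 with limma on TPM and 1 to 8 without 1 library, and the 9 lower became 2 to 16 without 1 library. The 12 higher in E518K than in KO became 5 with KO summed, 6 with limma and 5 to 15 without 1 library, and the 7 lower became 11 with the compared groups alone, 2 with KO summed and 2 to 11 without 1 library. With KO summed, calls were lost for Ndn, Ppp1r9a, Slc38a4, H13, Magel2 and Dcn in KO against wt, for Slc22a18, Kcnq1, Plagl1 and Impact in E518K against wt, and for Peg12, Cdkn1c, Kcnq1, Tssc4, Nap1l4, Peg10, Peg3, Ddc, Blcap, Commd1, Magel2 and Zim1 in E518K against KO. Limma on TPM lost Slc38a4 in KO against wt, Snrpn, Kcnq1, Usp29, Plagl1 and Impact in E518K against wt, and Cdkn1c, Tssc4, Nap1l4, Peg10, Commd1, Magel2 and Zim1 in E518K against KO. Among members given with values, Ube3a, Ndn and Slc38a4 gained calls in E518K against KO with the compared groups alone. Ube3a also gained one with RLE scaling factors and with DESeq2, and Ndn with DESeq2. The share called of all genes moved with the setting as well. In E518K against wt, 24.3% of members and 12.5% of all genes were called with the compared groups alone, and 23.1% and 18.2% with limma. In E518K against KO the shares were 66.7% and 58.8% with the compared groups alone, and 35.9% and 38.0% with limma. Direction changed for members without a call. Ndn in E518K against wt was -0.02 to 0.44 and Peg12 was -0.67 to 0.12 without 1 library, Usp29 in E518K against KO was -0.07 to 0.04, and Mest in KO against wt was -0.11 to 0.84. On the log2(TPM + 1) scale long genes of low level shrink, so that Kcnq1 in E518K against wt was 0.04 and Usp29 was -0.04. Other scaling factors moved the median of all genes to between -0.08 and 0.0. The causes of the other changes were not tested. No paired analysis was possible because the groups share no replicate number. Members under 1 CPM in every group (8 of 39) are limited by counts of 0 to 76 per library.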

Other observations

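Of 22 factors that maintain imprints, 4 were higher and 8 lower in KO than in wt, 4 were higher and 1 lower in E518K than in wt, and 8 were higher and 3 lower in E518K than in KO. The shares called, 54.5%, 22.7% and 50%, compare with 57.2%, 23.7% and 41.8% of all genes. UHRF1 recruits DNMT1 to newly copied DNA, and Uhrf1 was at 783 and 700 CPM in wt, 325 and 345 CPM in KO and 677 and 720 CPM in E518K. It was lower in KO than in wt by 1.15 ± 0.08 on the log2 scale (adjusted p = 5.56e-05), and E518K was above KO by 1.06 ± 0.08 (adjusted p = 0.000182). Arid4a and Arid4b, chromatin proteins that act on the Prader-Willi/Angelman imprint, were higher in KO, by 1.51 ± 0.19 (adjusted p = 0.000669) and 1.09 ± 0.12 (adjusted p = 0.000304). Arid4a was at 15.9 and 25.1 CPM in wt, 58.7 and 58.2 CPM in KO and 26.2 and 29.4 CPM in E518K. Arid4b was at 19.7 and 20.9 CPM in wt, 43.7 and 42.7 CPM in KO and 22.2 and 27.6 CPM in E518K. Dppa3, which protects the maternal genome from demethylation, fell in KO by 1.59 ± 0.38 (adjusted p = 0.00968; 0.0645 without KO library 3) from 3.78 and 7.18 CPM in wt to 2.07 and 1.58 CPM.

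Zfp57 was at 306 and 370 CPM in wt, 333 and 344 CPM in KO and 375 and 421 CPM in E518K, and Dnmt1 ranged from 351 to 378 CPM over the 6 libraries. Trim28, the partner of ZFP57, was at 1860 and 1790 CPM in wt, 1400 and 1410 CPM in KO and 2020 CPM in both E518K clones, lower in KO by 0.38 ± 0.05 (adjusted p = 0.000793). These values were chosen after they were seen. No relation between these factors and the imprinted genes was tested.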
